A study of Homo sapiens with 17 samples.

Results

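The nuclear genes of the oxidative phosphorylation complexes were followed in the human line K562, which was established from a chronic myeloid leukaemia and has erythroid features. Members were the protein-coding genes whose symbols start with NDUFA, NDUFB, NDUFC, NDUFS, NDUFV, UQCR, COX4I, COX5, COX6, COX7, COX8 or ATP5, together with SDHA to SDHD, and without the NDUFAF assembly factors. This name rule found 91 of 58735 annotated genes. They were 38 genes of complex I, 4 of complex II, 9 of complex III, 19 of complex IV and 21 of complex V. The values came from 17 RNA libraries read at the 3′ ends of polyadenylated transcripts.

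All 17 libraries came from cells that had taken up CRISPR activation plasmids by electroporation, had then received an antisense oligonucleotide, and were harvested on day 6. The oligonucleotide, the guides and the culture behind each library are not named in the labels. The reference arm was Neg, RFP and GFP, whose labels name no human gene. Plasmids labelled GOLGA8N (GOLGA8N 1, GOLGA8N 2 and 23-GOLGA8N) and LAPTM4B (LAPTM4B 1, LAPTM4B 2 and 22-LAPTM4B) gave 3 libraries each, counting the label with a number in front. Every other label had 1 library: 20-ARSF, 21-CTPS2, TTR, TRPC5OS, E7, ADORA2A, UBE2V1 and COL6A6. By label class there were 3 reference libraries, 4 with a number prefix and 10 other unprefixed libraries. What the prefix or E7 stands for is not stated. E7 was counted among the other unprefixed libraries, and no comparison took it as reference. All cells had plasmid and oligonucleotide, so no library shows untreated K562, and nothing in the labels says that libraries were separate cultures. The p-values therefore rest on library-to-library spread alone, which may be technical. Within a label class most libraries carry different plasmids, so in the comparisons of classes that spread also holds plasmid differences.

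Oxidative phosphorylation moves electrons from NADH and succinate to oxygen through complexes I to IV of the inner mitochondrial membrane and uses the resulting proton gradient in complex V to make ATP. Complex I oxidises NADH, complex II oxidises succinate and also belongs to the citric acid cycle, complex III passes electrons from ubiquinol to cytochrome c, and complex IV reduces oxygen. Most subunits are encoded in the nucleus, translated in the cytosol and imported, whereas a few hydrophobic core subunits are encoded in mitochondrial DNA; complex II has no mitochondrially encoded subunit. The transcription factors NRF1, GABP (an ETS factor) and YY1 are known regulators of nuclear respiratory genes.

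Promoter windows are shown because shared binding motifs are the regulatory feature for which this gene set is known. RefSeq promoters (GRCh38.p14, 250 bases before to 50 after the start of transcription) were found for 69 of the 91 members. Both strands were searched for the NRF1 motif (the letters in capitals for SDHA below, with any base in the sixth place), the ETS motif CCGGAAGT and the YY1 motif (the capitals for ATP5PF), none of which contains another. The NRF1 motif occurred in 16 members (23.2%), against 8.58% of 15843 protein-coding promoters. The ETS motif occurred in 9 of the 69 members, against 6.19% of promoters, and the YY1 motif in 7 members (10.1%, against 1.93%). At least 1 motif was present in 28 members (40.6%, against 15.3%). For complexes I to V in order, the NRF1 motif was in 6 of 33, 2 of 3, 4 of 7, 1 of 14 and 3 of 12 members. The ETS motif was in 2, 1, 3, 2 and 1 of these, and the YY1 motif in 4, 1, 1, 0 and 1. The shares of NRF1 (7.14%) and YY1 (0.0%) in complex IV and of ETS in complex I (6.06%) did not exceed those of all promoters. SDHA, the flavoprotein that oxidises succinate, had 4 NRF1 matches, each starting 49 bases after the previous match. SDHD, a membrane anchor of complex II, had an NRF1 and an ETS match. COX5B, an outer subunit of complex IV, had 2 ETS matches. UQCRH, the hinge protein of complex III, had an ETS match starting 47 bases before the start, and ATP5PF, a peripheral stalk subunit of complex V, a YY1 match starting 57 bases before it. The windows below run 5′ to 3′ in the direction of transcription, with the matches in capitals (some read on the other strand). They lie at chr5:218134-218330 on the plus strand for SDHA, chr11:112086743-112086822 (plus) for SDHD, chr2:97646005-97646084 (plus) for COX5B, chr1:46303631-46303678 (plus) for UQCRH and chr21:25735082-25735131 (minus) for ATP5PF.
SDHA: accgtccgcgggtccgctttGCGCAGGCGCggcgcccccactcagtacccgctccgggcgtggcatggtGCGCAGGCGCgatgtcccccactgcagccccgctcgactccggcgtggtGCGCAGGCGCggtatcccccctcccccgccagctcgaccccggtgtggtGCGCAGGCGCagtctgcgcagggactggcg
SDHD: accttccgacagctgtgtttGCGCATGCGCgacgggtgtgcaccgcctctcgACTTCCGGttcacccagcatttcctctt
COX5B: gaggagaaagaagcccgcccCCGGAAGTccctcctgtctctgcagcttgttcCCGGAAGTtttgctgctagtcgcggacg
UQCRH: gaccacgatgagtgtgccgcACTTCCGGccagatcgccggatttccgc
ATP5PF: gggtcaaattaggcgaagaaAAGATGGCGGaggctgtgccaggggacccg
A match is a string of letters and not a bound site. NDUFA1, COX7A2 and ATP5MG, with large differences between label classes below, had none of the 3 strings in their windows. UQCRB was among the members not found in the promoter table.

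The members were abundant in K562. Summed over the 91 genes they held 3.57% ± 0.18 of the reads in genes (SD, n = 17), or a mean of 35743 CPM, in which every library's reads in genes are scaled to the same total. Complex V contributed 11535 CPM, complex I 9301, complex IV 9096, complex III 5314 and complex II 496. At least 5 CPM on average was reached by 81 members. Another 6 had 0 reads in all 17 libraries: COX4I2, COX6A2, COX7A1, COX7B2, COX8C and the read-through gene ATP5MF-PTCD1. The remaining 4 were COX6B2 at 2.29 CPM, UQCRHL at 2.77, ATP5MGL at 4.72 and NDUFA4L2 at 0.276. Depth was lowest in GFP, with 569057 estimated reads, and highest in 20-ARSF, with 4236396, so that 3 reads, the upper limit that a count of 0 allows, corresponded to 5.45 CPM in GFP and 0.733 CPM in 20-ARSF.

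The silent members were mostly alternative isoforms. Several subunits of complex IV occur as a common form and a form known from particular tissues, and K562 RNA held the common one. COX4I1 was at 778 ± 67.2 CPM, COX6A1 at 422 ± 52.6, COX7A2 at 867 ± 117 and COX8A at 622 ± 56.7 (SD, n = 17), with 0 reads for COX4I2, for the muscle forms COX6A2 and COX7A1, and for the testis form COX8C. COX6B1 was at 734 ± 61.5 CPM and its testis counterpart COX6B2 at 2.29 ± 2.83, ranging from 0 to 9.09 CPM. NDUFA4, a subunit of complex IV despite its name, was at 740 ± 99.3 CPM. NDUFA4L2, its hypoxia-induced relative, had reads in 3 of 17 libraries and at most 2.01 CPM. The c-ring of ATP synthase, by contrast, drew on 3 genes that encode the same mature protein. ATP5MC3 was at 1394 ± 113 CPM, ATP5MC2 at 853 ± 59.1 and ATP5MC1 at 228 ± 33.2, an order that held per length as well, with 763, 412 and 324 TPM.

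Levels of different genes are given here per transcript length, in the TPM values deposited with the libraries. Within complex I the range ran from 1.28 TPM for NDUFS1, the large iron-sulphur subunit, to 2106 TPM for NDUFA1, a small accessory subunit. Complex II ran from 9.70 TPM for the anchor SDHD to 141 TPM for the iron-sulphur subunit SDHB. Complex III ran from 15.4 TPM for the Rieske protein UQCRFS1 to 2153 TPM for UQCRQ. In complex IV, COX7A2L, which joins complexes III and IV into supercomplexes, was lowest at 23.7 TPM and COX7C highest at 4139 TPM. In complex V, ATP5S, a coupling factor rather than a structural subunit, was lowest at 3.94 TPM and ATP5MG, a membrane subunit, highest at 3019 TPM. In complexes I and III the accessory subunits, as groups, stood above the core subunits. The 7 nuclear core subunits of complex I had a median of 48.5 TPM, against 165 TPM for the 30 accessory subunits. The 3 core subunits of complex III among the members had a median of 37.9 TPM, against 1158 TPM for 5 accessory subunits. In complex II the order depended on the scale. Its 2 catalytic subunits had medians of 133 TPM and 99.0 CPM, and its 2 anchors 48.6 TPM and 149 CPM. In a 3′ tag library each molecule gives reads near its end whatever its length, so dividing by length lowers long transcripts. The order of single genes therefore depended on the scale. SDHB was at 98.8 CPM, below SDHC at 268, and UQCRFS1 was at 136 CPM, above UQCRC1 at 104 and UQCRC2 at 93.9. In CPM the contrast of core and accessory subunits remained: 118 against 204 CPM in complex I and 104 against 1254 in complex III.

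**Figure D1:**
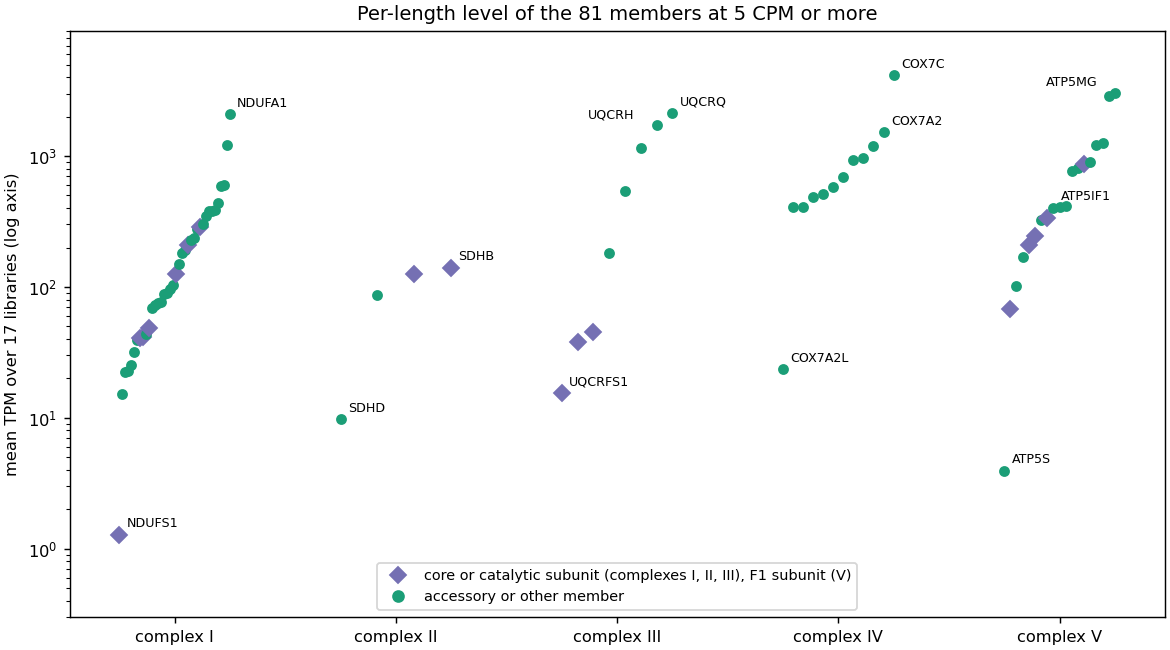
Mean TPM over 17 libraries (log axis) of the 81 members at 5 CPM or more, sorted within each complex, with diamonds for core or catalytic subunits of complexes I, II and III and F1 subunits of complex V, and circles for other members. Values reach from 1.28 TPM for NDUFS1 to 4139 TPM for COX7C, and the 3 core members of complex III lie below its 5 accessory members.

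Some of these levels may be understated. For 7 members the files hold transcripts that match no gene of the annotation but have the same length as a member's transcripts and equal counts within 1%. Their sequences were not compared with those of the members. With these transcripts added, ATP5IF1, the inhibitor of ATP synthase, would be at 755 ± 83.5 CPM in place of 378 ± 41.7 (SD, n = 17). NDUFS3 would be at 258 CPM in place of 129, UQCRC2 at 187 in place of 93.9, NDUFA10 at 58.3 in place of 29.7, NDUFS1 at 30.9 in place of 15.6 and NDUFA3 at 15.2 in place of 9.69. NDUFA6, with 4 such transcripts, would be at 131 CPM in place of 30.5. UQCRH and UQCRHL are near-identical copies, ATP5MGL is a close copy of ATP5MG, and NDUFC2-KCTD14 is a read-through gene that contains NDUFC2, so the division of reads within these pairs is uncertain. Of the annotation's pseudogenes of members, 150 together held 10.3 ± 8.09 CPM (SD, n = 17).

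At a given level, members varied somewhat less between libraries than all genes did. Over the 16 libraries other than GFP, which is far shallower, members averaging 50 to 200 CPM had a median coefficient of variation (SD over mean) of 16.7%, against 19.5% for all genes at that level. At 200 to 1000 CPM it was 10.4% for 38 members and 14.1% for all genes, and above 1000 CPM 9.27% for 10 members and 10.1% for all. The steadiest members were UQCRH at 4.80%, ATP5MC2 at 6.76% and COX4I1 at 7.69%. Over the same 16 libraries UQCRH ranged from 1582 CPM in RFP to 1942 CPM in COL6A6. The most variable at 50 CPM or more were subunits of complex I. NDUFV1, which binds NADH, had 29.4% and ranged from 40.5 CPM in 22-LAPTM4B to 110 CPM in UBE2V1, NDUFS7 had 23.7% and ranged from 50.8 CPM in E7 to 117 CPM in Neg, and NDUFB3 had 23.1% and ranged from 43.1 CPM in RFP to 124 CPM in GOLGA8N 2.

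The summed level of the members was higher in the other unprefixed libraries than in the reference libraries, while the prefixed libraries interleaved with the reference in CPM. Among the reference libraries it was 32987 CPM in GFP, 34003 in RFP and 34578 in Neg. Among the prefixed libraries it was 33195 CPM in 22-LAPTM4B, 33944 in 21-CTPS2, 34325 in 23-GOLGA8N and 35787 in 20-ARSF. The 10 other unprefixed libraries ran from 35294 CPM in GOLGA8N 2 through a median of 36633 to 38671 in UBE2V1 and 39089 in COL6A6. All 10 lay above every reference library and above 3 of 4 prefixed libraries, and 20-ARSF lay above GOLGA8N 2, E7 and TTR. Means were 33856 ± 806 CPM (SD, n = 3), 34313 ± 1089 (n = 4) and 36881 ± 1328 (n = 10). COL6A6 held the highest value of 17 of the 74 members at 50 CPM or more, LAPTM4B 2 of 12, GFP of 10 and UBE2V1 of 9, and the lowest values fell in GFP for 18 and in 23-GOLGA8N for 12. With the TMM factors used in the tests, the sums were 31353 ± 1497 CPM in reference, 34797 ± 1209 in prefixed and 37900 ± 2346 in other unprefixed libraries, and all 3 reference libraries (29633 to 32360) lay below all prefixed ones (33309 to 36271). On the deposited TPM scale the classes overlapped: the members' share was 4.28% ± 0.204 in reference, 4.01% ± 0.285 in prefixed and 4.51% ± 0.248 in other unprefixed libraries, with reference libraries at 4.07% to 4.48% and other unprefixed ones at 4.04% to 4.86%. In bulk RNA a change in the number of cells of a kind and a change in RNA per cell cannot be told apart.

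Complexes I, III, IV and V each had their highest mean in the other unprefixed libraries, and complex II did not. Complex I summed to 9012 ± 33.1 CPM in reference, 8679 ± 362 in prefixed and 9637 ± 411 in other unprefixed libraries. With TMM the first 2 of these changed order, at 8343 ± 233 in reference and 8801 ± 341 in prefixed libraries, against 9904 ± 671. Complex III summed to 4875 ± 258, 5271 ± 196 and 5463 ± 214 CPM, complex IV to 8431 ± 477, 8773 ± 273 and 9424 ± 454, and complex V to 10962 ± 187, 11118 ± 296 and 11874 ± 394, in the same order of classes. Complex II had its highest mean in the reference libraries, at 660 CPM in GFP, 542 in Neg and 528 in RFP. It was 407 to 518 CPM in the prefixed and 408 to 540 CPM, with a median of 485, in the other unprefixed libraries, where ADORA2A (540 CPM) and LAPTM4B 2 (535 CPM) overlapped the reference range. The contrast rested on GFP and on the scaling. With TMM, Neg (502.3) and RFP (502.9) lay close to the median of the other unprefixed libraries (499). Both lay below E7 (507.7), LAPTM4B 2 (531.3), UBE2V1 (546.4) and ADORA2A, and only GFP (592.9) lay above all 10. These sums are descriptions, without a test.

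**Figure D2:**
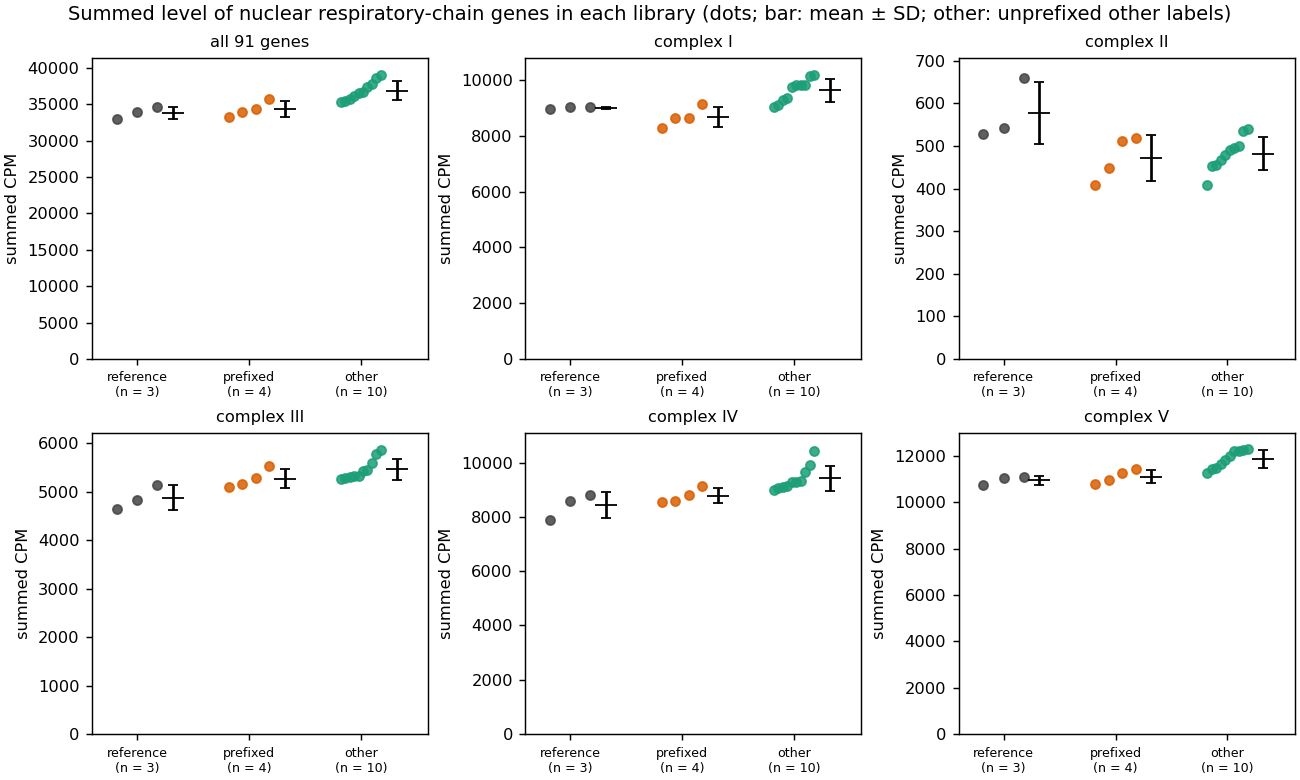
Summed CPM of all 91 members and of each complex in every library (dots) by label class, with the mean ± SD at the right of each group; "other" stands for the 10 unprefixed libraries outside the reference arm. All 10 other libraries lie above the 3 reference libraries in the sum over all members, whereas for complex II the reference libraries, at 528 to 660 CPM, overlap the others, with GFP the highest.

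The other unprefixed libraries were next compared with the reference libraries gene by gene (10 against 3), in a single edgeR fit of the 3 label classes in which 84 members could be tested. Of these, 74 had a log2 fold above 0, with a median of 0.208, whereas 51.0% of all 13133 genes tested were above 0, with a median of 0.012. With library totals as the only scaling the medians were 0.053 and -0.134, and 54 of 84 members were above 0. Only NDUFA1 passed the test (edgeR adjusted p = 0.0312, under the 0.05 threshold), in a comparison in which 0.0533% of all genes were called. At an unadjusted p under 0.05 there were 26 members, all higher, against 8.54% of all genes. Every other unprefixed library exceeded every reference library in CPM for 7 members, NDUFA1, UQCRB, ATP5MG, COX7A2, COX6C, NDUFB3 and NDUFS5, against 0.602% of all genes. Without GFP the test called 0 members, with 18 at an unadjusted p under 0.05 and 74 of 84 above 0, and the median was 0.197.

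NDUFA1, encoded on the X chromosome (119871487 to 119876662, plus strand, GRCh38), makes a small membrane subunit needed for complex I assembly. Its CPM was 1158 in GFP, 1165 in Neg and 1200 in RFP. In the 10 other unprefixed libraries it ran from 1354 in LAPTM4B 2 through a median of 1522 to 1803 in UBE2V1. All 10 lay above the reference libraries. The prefixed libraries also lay above the reference, at 1239 in 21-CTPS2, 1308 in 23-GOLGA8N, 1416 in 20-ARSF and 1440 in 22-LAPTM4B. The log2 fold was 0.54 ± 0.11 (SE), or 1.45-fold. The ratio of mean CPM was smaller, 1534 ± 141 against 1174 ± 22.6 CPM (SD), because the fit scales libraries by TMM, whose factors were 1.0508 to 1.1132 in the reference and 0.8996 to 1.0131 in the other unprefixed libraries. The call was lost in 10 of 20 alternative analyses, among them those without Neg, RFP or GFP, in which the adjusted p was 0.128, 0.134 and 0.347.

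Members next to NDUFA1 in this comparison had folds of like size and did not pass. ATP5MG (chromosome 11, 118401154 to 118431496), subunit g of ATP synthase, was at 1066 CPM in GFP, 1260 in RFP and 1333 in Neg, and at 1351 to 1705 with a median of 1578 in the other unprefixed libraries (log2 fold 0.49 ± 0.11, edgeR adjusted p = 0.0606). COX7A2 (chromosome 6, 75237675 to 75250323), the ubiquitous form of subunit 7a of complex IV, was at 650 CPM in RFP, 722 in GFP and 734 in Neg, against 819 to 1034 with a median of 916 (log2 fold 0.54 ± 0.12, edgeR adjusted p = 0.0634). For both genes the groups did not overlap, and for ATP5MG the lowest of the 10 libraries (1351 CPM, TRPC5OS) lay just above Neg. UQCRB, a ubiquinone-binding subunit of complex III, was at 996 CPM in RFP, 1069 in GFP and 1115 in Neg, against 1178 to 1490 with a median of 1303 (log2 fold 0.45 ± 0.10, edgeR adjusted p = 0.0606). COX6C had a log2 fold of 0.45 ± 0.11 (edgeR adjusted p = 0.0878). Limma-voom called 70 of 13133 genes and 5 of 84 members. DESeq2, on genes without a filter, called 53 of 26797 genes and 8 of 85 members.

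**Figure D3:**
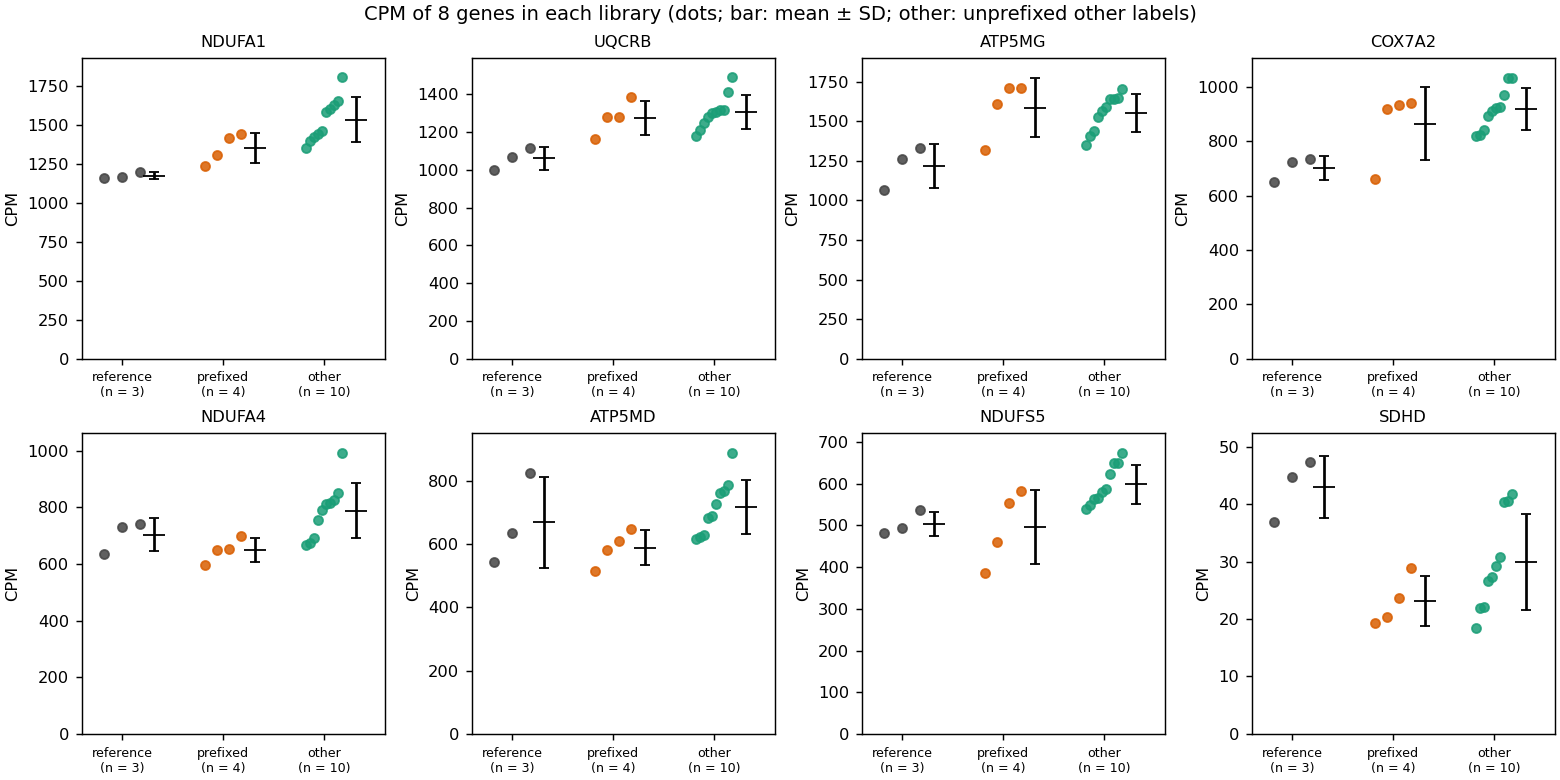
CPM of 8 members in every library (dots) by label class, with the mean ± SD at the right of each group; "other" stands for the 10 unprefixed libraries outside the reference arm. In the upper row (NDUFA1, UQCRB, ATP5MG and COX7A2) all other unprefixed libraries lie above the 3 reference libraries. For SDHD in the lower row, named after its values were seen, the reference and the other unprefixed libraries overlap.

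By complex, the members above 0 were 33 of 38 in complex I (median log2 0.162), 9 of 9 in complex III (0.248), 12 of 13 in complex IV (0.279) and 19 of 20 in complex V (0.237). Within complex V the 5 small membrane subunits had a median of 0.376, the 4 stalk subunits 0.238, the 3 c-ring genes 0.164 and the 5 subunits of the catalytic F1 head 0.079. ATP5IF1 had a log2 fold of 0.32 ± 0.13 (edgeR adjusted p = 0.474). The 7 core subunits of complex I had a median of 0.078 and its 30 accessory subunits 0.163. In complex II only SDHA was above 0, at 0.33 ± 0.18, while SDHB was at -0.11 ± 0.19, SDHC at -0.20 ± 0.14 and SDHD at -0.37 ± 0.27, and none of the 4 passed (edgeR adjusted p of 0.645 to 0.936). SDHD was at 36.9 CPM in RFP, 44.7 in Neg and 47.3 in GFP, and at 18.5 to 41.8 with a median of 28.2 in the other unprefixed libraries, so the groups overlapped.

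**Figure D4:**
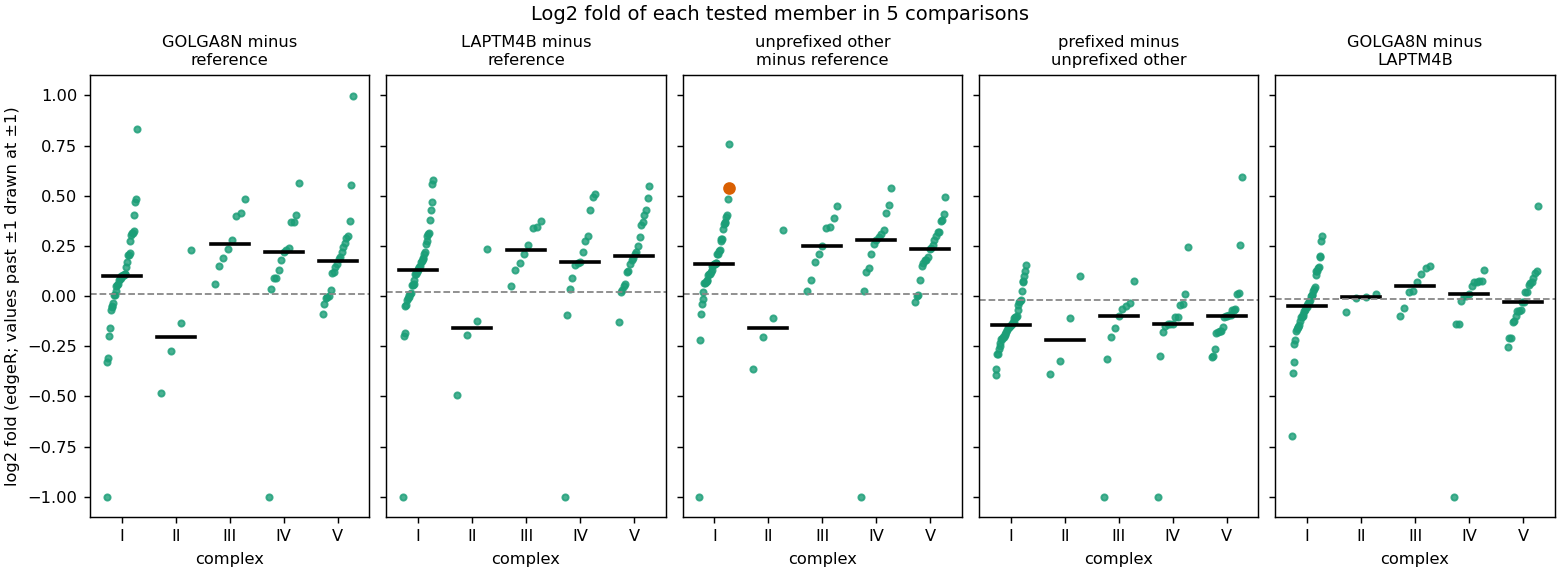
Log2 fold (edgeR) of each tested member by complex in 5 comparisons, with thick bars for the median of each complex and a dashed line for the median of all genes tested; the larger orange point is NDUFA1, the only call, and 9 values past 1 or below -1 are drawn at those limits. Complexes I, III, IV and V lie above the dashed line in the 3 comparisons with the reference libraries, with complex II below it.

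GOLGA8N and LAPTM4B, the labels with 3 libraries each, were set against the same 3 reference libraries, which these comparisons share with each other and with the one above. For GOLGA8N (3 against 3) 65 of 83 tested members were above 0, with a median log2 of 0.144, against 50.7% of 11916 genes and a median of 0.008. With library totals as the only scaling the members' median turned to -0.009 with 39 of 83 above 0, and that of all genes to -0.141. The edgeR test called 0 members and 0.0168% of all genes, with 10 members at an unadjusted p under 0.05, against 5.68% of genes. DESeq2 and limma-voom called 0 members as well. Every GOLGA8N library exceeded every reference library for 7 members, against 3.79% of genes, and lay below every one for 4 members, against 8.03% of genes. Without GFP, 61 of 84 were above 0 with a median of 0.108, and 10 had an unadjusted p under 0.05. COX7A2 was at 824 CPM in GOLGA8N 2, 941 in 23-GOLGA8N and 1034 in GOLGA8N 1, above the reference range of 650 to 734 (log2 fold 0.56 ± 0.14, edgeR adjusted p = 0.389). ATP5MG was at 1436, 1710 and 1705 CPM in the same libraries (0.55 ± 0.14, edgeR adjusted p = 0.424), and UQCRB at 1314, 1279 and 1411 CPM (0.48 ± 0.12, edgeR adjusted p = 0.462).

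For LAPTM4B (3 against 3), 69 of 83 members were above 0, with a median log2 of 0.166, against 51.9% of genes and a median of 0.022, and with library totals as the only scaling the medians were 0.028 and -0.116. The edgeR test called 0 members and 0.0% of all genes, with 12 members at an unadjusted p under 0.05, against 3.94% of genes, and DESeq2 and limma-voom called 0 members. Every LAPTM4B library exceeded every reference library for 9 members, against 3.68% of genes, and lay below every one for 2 members, against 6.45% of genes. Without GFP, 68 of 84 were above 0 with a median of 0.133, and 9 had an unadjusted p under 0.05. COX7A2 was at 843 CPM in LAPTM4B 2, 919 in 22-LAPTM4B and 925 in LAPTM4B 1 (log2 fold 0.49 ± 0.14), ATP5MG at 1406, 1609 and 1649 CPM (0.49 ± 0.14) and NDUFA1 at 1354, 1440 and 1629 CPM (0.47 ± 0.13), each with an edgeR adjusted p of 1.00. All 9 values lay above the reference libraries. In both comparisons 1 of 4 members of complex II was above 0. For GOLGA8N, SDHA was at 0.23 ± 0.23, SDHB at -0.13 ± 0.26, SDHC at -0.27 ± 0.17 and SDHD at -0.48 ± 0.39, and for LAPTM4B they were at 0.24 ± 0.23, -0.13 ± 0.26, -0.20 ± 0.17 and -0.49 ± 0.39. None passed (edgeR adjusted p of 0.940 to 1.00).

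Set directly against each other, without the reference libraries, GOLGA8N and LAPTM4B plasmids gave 38 of 83 members above 0 and a median log2 of -0.009, near the 48.4% and -0.014 of all genes. The edgeR test called 0 members and 0.00839% of all genes, and 0 members had an unadjusted p under 0.05, against 2.04% of genes; DESeq2 and limma-voom also called 0 members. The lowest p were those of 2 stalk subunits and an accessory subunit of complex I. ATP5PO was lower in the GOLGA8N libraries, at 536 CPM (GOLGA8N 2), 571 (23-GOLGA8N) and 577 (GOLGA8N 1), than in the LAPTM4B libraries, at 619 (LAPTM4B 1), 646 (22-LAPTM4B) and 697 (LAPTM4B 2) (log2 fold -0.21 ± 0.13). ATP5PD was at -0.25 ± 0.20 and NDUFA7 at 0.30 ± 0.22, all 3 with an edgeR adjusted p of 1.00. The groups did not overlap for these 3 genes. They were picked for their low p, and the share of all genes with such separation is not given here, so nothing is drawn from it.

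Most members had lower values in libraries with a number prefix than in the other unprefixed libraries (4 against 10, which shares those 10 libraries with the first comparison). Of 84 members, 14 were above 0 and 70 below, with a median log2 of -0.134, against 48.0% of genes above 0 and a median of -0.02. Without a filter on low counts the members' median was -0.127 and that of all genes -0.109, and with DESeq2, also unfiltered, -0.128 and -0.118. The medians then lay close together. In both settings 17.65% of members were above 0, against 41.58% of all genes with edgeR and 41.4% with DESeq2. The edgeR test called 0 members and 0.213% of all genes, with 11 members at an unadjusted p under 0.05, all lower, against 8.92% of genes; DESeq2 and limma-voom called 0 members. Leaving out 1 library at a time, the number of genes called ran from 4 (without 22-LAPTM4B) to 111 (without E7), with 0 members in each case, and the members at an unadjusted p under 0.05 fell to 6 without UBE2V1. For 0 members was every prefixed library below every other unprefixed library, against 0.267% of genes. The direction was the same in the GOLGA8N and LAPTM4B labels alone with the gene as a term, in which 20 of 82 members were above 0 with a median of -0.117.

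NDUFA4 had the lowest p in that comparison, at 598 CPM in 23-GOLGA8N, 648 in 22-LAPTM4B, 653 in 20-ARSF and 698 in 21-CTPS2, against 668 to 991 with a median of 802 in the other unprefixed libraries (log2 fold -0.30 ± 0.10, edgeR adjusted p = 0.280). ATP5MD, a small membrane subunit also known as DAPIT, was at 516 CPM in 23-GOLGA8N, 581 in 20-ARSF, 610 in 22-LAPTM4B and 647 in 21-CTPS2, against 617 to 887 with a median of 709 (-0.30 ± 0.11, edgeR adjusted p = 0.316). NDUFS5 was at 387 CPM in 21-CTPS2, 461 in 22-LAPTM4B, 554 in 20-ARSF and 583 in 23-GOLGA8N, against 540 to 673 with a median of 584 (-0.29 ± 0.11, edgeR adjusted p = 0.363). For all 3 genes the prefixed and unprefixed ranges overlapped. By complex, 32 of 38 members of complex I, 3 of 4 of complex II, 8 of 9 of complex III, 11 of 13 of complex IV and 16 of 20 of complex V had a log2 fold below 0. The members that stood out against the reference libraries were less apart here: ATP5MG was at 0.02 ± 0.09, UQCRB at -0.05 ± 0.08, COX7A2 at -0.10 ± 0.10 and NDUFA1 at -0.20 ± 0.09.

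The 13 subunits encoded in mitochondrial DNA can be set beside their nuclear partners. They held 11.3% ± 1.21 of the reads in genes (SD, n = 17). In the other unprefixed libraries against reference 12 of 13 were above 0 with a median log2 of 0.358. The edgeR test called 0 of them, and 9 were at an unadjusted p under 0.05, against 8.54% of all genes. The lowest p belonged to 3 subunits of complex I: MT-ND1 at 0.52 ± 0.11, MT-ND3 at 0.42 ± 0.09 and MT-ND5 at 0.63 ± 0.16. In the prefixed against the other unprefixed libraries 12 of 13 were below 0 with a median of -0.245. The edgeR test called 0.213% of all genes and 3 of these 13, all lower. They were MT-ATP6 at -0.51 ± 0.10, MT-ND3 at -0.39 ± 0.08 and MT-ND4L at -0.46 ± 0.10, each with an edgeR adjusted p of 0.0377. These calls were held in 9, 7 and 7 of 22 alternative analyses, with adjusted p of up to 0.183, 0.529 and 0.268, and all 3 were lost with GOLGA8N and LAPTM4B labels alone and when any 1 of 20-ARSF, 21-CTPS2, 23-GOLGA8N, TTR, LAPTM4B 1, ADORA2A, UBE2V1, COL6A6 or GOLGA8N 1 was left out. Their share of reads was 9.82% ± 0.507 in prefixed, 11.1% ± 0.598 in reference and 12.0% ± 0.946 in other unprefixed libraries. Across the 17 libraries the nuclear and the mitochondrial share had a Pearson r of 0.484 and a Spearman rho of 0.517, and 0.538 and 0.541 without GFP. The shares come from the same libraries and totals, so these are descriptions.

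Other mitochondrial lists and glycolysis differed in how many genes were above 0. Against reference, in the other unprefixed libraries, cytosolic ribosomal proteins were above 0 for 80 of 84 genes (median log2 0.21), mitochondrial ribosomal proteins for 54 of 77 (0.106), and import and inner membrane proteins for 22 of 28 (0.122), among them TOMM7 at 0.38 ± 0.11. Assembly factors stayed near all genes, with 9 of 17 above 0 for complex I (0.025) and 16 of 26 for complex IV (0.076), where the copper chaperone COX17 was at 0.32 ± 0.13. Assembly factors were above 0 for 2 of 4 genes for complex II, 5 of 6 for complex III and 3 of 5 for complex V. The citric acid cycle (11 of 19, 0.028), glycolysis (10 of 19, 0.001), electron carriers and coenzyme Q synthesis (7 of 19, -0.036) and the regulators of respiratory genes (9 of 20, -0.072) were close to the 51.0% of all genes or below it. The edgeR test called 0 genes of these lists in that comparison, with 49 of the 84 cytosolic ribosomal proteins and 8 of the 77 mitochondrial ones at an unadjusted p under 0.05, all higher, against 8.54% of all genes. For LAPTM4B against reference glycolysis was above 0 for 15 of 19 genes (0.105), the citric acid cycle for 13 of 19 (0.158) and complex V assembly for 4 of 5, and for GOLGA8N these were 10 of 19 (0.022), 11 of 19 (0.038) and 1 of 5. Cytosolic ribosomal proteins were above 0 for 76 of 84 with LAPTM4B and 75 of 84 with GOLGA8N.

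In the prefixed against the other unprefixed libraries, glycolysis stood opposite to the members. Of 19 genes 17 were above 0, against 48.0% of all genes, with a median log2 of 0.341. At an unadjusted p under 0.05 there were 11, against 8.92% of all genes. Of these 11, 9 were higher, and the 2 glycolysis genes below 0 were the others. The edgeR test called 0. The glucose transporter SLC2A1 was at 0.63 ± 0.16 (edgeR adjusted p = 0.105), GAPDH at 0.64 ± 0.16 (0.119) and the enolase ENO2 at 1.04 ± 0.31 (0.190). Mitochondrial ribosomal proteins were above 0 for 22 of 77 genes (-0.139) and import proteins for 9 of 28 (-0.154). TFAM, which packages mitochondrial DNA and acts in its transcription, was at -0.51 ± 0.16 (edgeR adjusted p = 0.250) and cytochrome c, CYCS, at -0.30 ± 0.11 (edgeR adjusted p = 0.308). Cytosolic ribosomal proteins were above 0 for 42 of 84, with RPL22L1 called lower at -0.76 ± 0.16 (edgeR adjusted p = 0.0295) and RPLP1 called higher at 0.36 ± 0.08 (edgeR adjusted p = 0.0450), calls held in 15 and 9 of 22 alternatives and both lost when any 1 of 21-CTPS2, 22-LAPTM4B, 23-GOLGA8N, ADORA2A, COL6A6 or GOLGA8N 1 was left out. The remaining lists had 8 of 19 above 0 (citric acid cycle), 8 of 19 (electron carriers), 10 of 20 (regulators) and, for assembly factors of complexes I to V in order, 8 of 17, 2 of 4, 2 of 6, 9 of 26 and 0 of 5.

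Many members have short transcripts, and among other genes the differences from reference were larger for short transcripts. Members had a median transcript length of 606 nt, and 42 of the 83 members tested for GOLGA8N were under 600 nt. For GOLGA8N against reference their median log2 was 0.174, and that of 259 other genes at 50 CPM or more with transcripts under 600 nt, ribosomal proteins left out, was 0.18. For LAPTM4B the values were 0.169 and 0.164, and for the other unprefixed libraries against reference 0.219 and 0.183. Among longer transcripts the other genes fell toward the median of all genes, with 0.072 for 951 genes of 2000 nt or more in the last comparison, where 8 members had 0.232. In the prefixed against the other unprefixed libraries short members were at -0.107 and other short genes at -0.049, and at 600 to 1000 nt 24 members were at -0.168 and 406 other genes at -0.097. The part of transcript length in the members' differences was not tested.

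**Figure D5:**
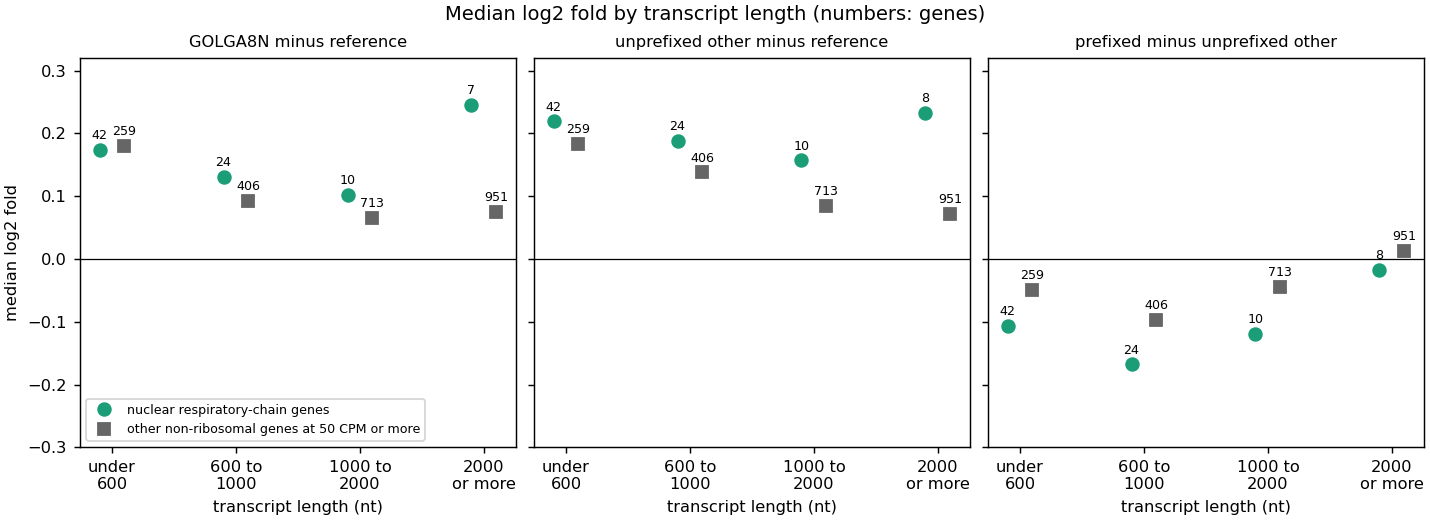
Median log2 fold by transcript length class for the tested members (circles) and for other genes at 50 CPM or more that are not ribosomal proteins (squares), with the number of genes above each point, in 3 comparisons. Members and other genes under 600 nt lie at 0.174 and 0.18 for GOLGA8N against reference, and members lie below the other genes in all 4 classes for prefixed against other unprefixed libraries.

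The libraries carried K562 markers. All 18 genes of an erythroid and megakaryocytic list averaged at least 5 CPM, summing to 7265 to 13330 CPM per library. Other blood cell markers reached 5 CPM for 2 of 12 genes (52.0 to 139 CPM in sum, CD3E and MS4A1 at 0), fibroblast markers for 1 of 6 (20.7 to 64.3 CPM, LUM and PDGFRB at 0) and epithelial markers for 3 of 5 (242 to 427 CPM, mostly KRT19). Their part in the members' differences was not tested.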

How the data were processed

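Total RNA of 17 K562 libraries was made into 3′ tag libraries (Lexogen QuantSeq, with UMIs of 12 bp), per the labels' protocols. The submitters' processing notes name STAR, Salmon, featureCounts and UMI-tools, and GRCh38. UMI collapsing and the strand setting are not given in the sources used. The deposited files hold, per transcript, the authors' estimated counts (NumReads) and TPM, per the file headers. Of 228297 transcripts, 205336 matched GENCODE 29, and the unmatched ones, 3.32 to 3.60% of reads per library, were left out.

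Estimated counts were summed per gene, rounded for the tests, and given as CPM of the reads in genes. Fits used edgeR 4.0.16 (quasi-likelihood test, TMM, filterByExpr) with Benjamini-Hochberg adjustment over all genes tested, called at 0.05, on 9 libraries (GOLGA8N, LAPTM4B, reference) or on all 17 by label class. TPM entered no test. Log2 folds are given with an SE computed as their size over the square root of the quasi-likelihood F statistic. Alternatives were limma 3.58.1 (voom), DESeq2 1.42.0, other scaling and filters, unmatched transcripts kept, and each library left out. All 136 library pairs differed by more than counting noise. Named genes were the members with the lowest p in each comparison (3 each), the extremes of TPM in each complex and of spread, isoform pairs, ATP5IF1 and up to 3 genes with the lowest p of each pathway list; the 4 members of complex II and COX6C were named after their values were seen. The upper limit of 3 reads for a count of 0 covers counting error only. The members and lists were chosen with earlier results of these data known.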

Additional observations from a re-analysis of the deposited data

Results flagged for a closer look

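Among the 62 groups of 4 or 10 libraries examined for a single distant value, 2 were set apart by a gap that is large for the group's range, where chance gives about 1 in 20, so these 2 are no more than chance would give. COX7A2 was at 662.3 CPM in 21-CTPS2, while the other 3 prefixed libraries lay between 919 and 941 CPM. UQCRFS1 was at 123.47 CPM in 20-ARSF, apart from the other 3 prefixed libraries.

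Reads also fell on transcripts outside the annotation that had the same length as a member's transcripts and equal counts. Over the 17 libraries they came to 19341 reads for ATP5IF1, 6495 for NDUFS3, 5000 for NDUFA6, 4702 for UQCRC2, 1460 for NDUFA10, 786 for NDUFS1 and 238 for NDUFA3, above the 3 reads that a count of 0 allows.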

How the results depend on the processing

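The members' median for GOLGA8N changed sign under 1 setting. Scaling by library totals alone moved the median log2 of all genes to -0.141 (GOLGA8N against reference), -0.116 (LAPTM4B) and -0.134 (other unprefixed libraries), and that of the members to -0.009 (39 of 83 above 0), 0.028 and 0.053. The members' median less that of all genes was 0.132, 0.144 and 0.187 under it, against 0.136, 0.144 and 0.196 in the main analysis. The stricter filter on low counts took the members' median for GOLGA8N to 0.076 (0.082 above all genes). For LAPTM4B it was 0.097 with that filter, 0.232 with a term for the prefix, and 0.099 (without LAPTM4B 2) to 0.219 leaving out 1 library each; that of the other unprefixed libraries was 0.121 with the stricter filter. In the same comparison the number of members called was 0 with DESeq2's size factors, library totals, the stricter filter or unmatched transcripts kept, 5 with limma-voom, 6 without a filter and 8 with DESeq2, and 0 to 4 leaving out 1 library each, with 4 without LAPTM4B 2 and 0 without Neg, RFP, GFP, LAPTM4B 1, ADORA2A or GOLGA8N 1. Calls among all genes differed between these settings too. They were 7 of 13133 in the main analysis, 70 of 13133 with limma-voom and 106 of 26797 without a filter. With DESeq2 they were 53 of 26797, and without LAPTM4B 2 they were 13 of 12829. The adjusted p of NDUFA1 ranged from 0.00083 to 0.347 over 20 alternatives. For GOLGA8N against LAPTM4B, 25 (without 22-LAPTM4B) to 52 members were above 0. The members' share was 4.35% in TPM and 5.943% of reads outside mitochondrial and ribosomal genes. The cause of these shifts was not tested. With 2 pairs of unprefixed libraries, numbers 1 and 2 do not establish a pairing (correlation of deviations 0.129 over 9248 genes); a fit with the replicate number as a block left 31 of 82 members above 0 (median -0.035, 2 genes called), and without it 32 (-0.039, 2 genes called). GFP, at 569057 reads, limits the reference group at low levels.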
